A study of Homo sapiens with 22 samples.

Results

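The H3K4me2 regions of NCI-H660 cells were set against the accessible chromatin of the same cells, with 1 deposited list on each side. The H3K4me2 ChIP-seq list of vehicle-treated cells held 70388 regions and the ATAC-seq list of vehicle-treated cells held 99959, together 170347 of the 871377 regions in the 22 lists of the series. A region counted as shared when it overlapped a region of the other list by at least 1 bp. Of the accessible regions, 54095 overlapped an H3K4me2 region (54.1%, 53.8 to 54.4%) and 45864 did not. Of the H3K4me2 regions, 62086 overlapped an accessible region (88.2%, 88.0 to 88.4%) and 8302 did not. The resulting classes are called accessible with H3K4me2, accessible without H3K4me2 and H3K4me2 without ATAC. Each was divided into promoter regions, which reached within 1 kb of a protein-coding transcript start, and distal regions. Intervals after a share are Wilson 95% intervals, and they cover counting error only.

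H3K4me2 is dimethylation of lysine 4 on histone H3. It lies on the nucleosomes that flank active promoters and on enhancers, including enhancers that are primed but not active. Methyltransferases of the KMT2 and SETD1 families add methyl groups to this lysine, and the demethylase LSD1 (KDM1A), with its CoREST partners, takes the mono- and dimethyl marks off again. ATAC-seq reads where the Tn5 transposase can reach DNA, which is mostly the nucleosome-depleted centre of the same elements. FOXA2 is a forkhead pioneer factor that can bind DNA on closed chromatin, and JUN is a basic leucine zipper subunit of the AP-1 dimer.

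NCI-H660 is an established neuroendocrine prostate cancer line. The study used it beside PC3 and LNCaP to ask where FOXA2 and JUN bind in prostate cancer of different lineages and how an LSD1 inhibitor acts on FOXA2. No genotype was altered in the NCI-H660 samples. FOXA2 lists exist for vehicle (11886 regions) and for 4 h of the LSD1 inhibitor ORY-1001 at 10 µM (11469), and JUN was profiled in cells transfected with a negative control siRNA, siNC (18401), or with siFOXA2 (59452). The H3K4me2 and ATAC lists come from vehicle, so JUN occupancy below joins siRNA-transfected cells with vehicle cells, and the deposited name of the ATAC list also carries a control siRNA that its label does not mention. Each list is 1 sample with no replicate, and whether replicates were pooled is not given in the sources used here. No test between conditions was therefore possible, and read depth is unknown.

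The labels of the cells were checked against the promoters of marker genes. All 8 neuroendocrine markers, among them NEUROD1, INSM1, CHGA and SYP, had an accessible promoter with H3K4me2. So had 5 of 6 luminal markers and 1 of 3 basal markers, TP63. The same state was found for 72.1% of all protein-coding genes and all 14 housekeeping genes, so it does not single out a lineage. KLK3, KRT5 and KRT14 had neither. A promoter in this state is not a measure of RNA, and the luminal promoters were marked at H3K4me2 scores of up to 690 against up to 395 for the neuroendocrine ones. These scores are the peak caller's, read here as 10 times the -log10 of the q value.

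To show what the classes look like in sequence, high-scoring distal accessible regions are given, bound by FOXA2 without H3K4me2 and by JUN with and without it, as the region centre with 100 bases to either side, on the plus strand of hg19. Capitals mark the motif of the factor on either strand. The forkhead motif was searched as TATTTAC or TATTTAT or TATTTGC or TATTTGT or TGTTTAC or TGTTTAT or TGTTTGC or TGTTTGT, and the AP-1 motif as TGACTCA or TGAGTCA. These 3 were chosen after their values were seen, as the regions of highest score in fewer than 17 of the 22 lists that held the factor and its motif and no mitochondrial sequence.
FOXA2, without H3K4me2, chr18:31382954-31383154: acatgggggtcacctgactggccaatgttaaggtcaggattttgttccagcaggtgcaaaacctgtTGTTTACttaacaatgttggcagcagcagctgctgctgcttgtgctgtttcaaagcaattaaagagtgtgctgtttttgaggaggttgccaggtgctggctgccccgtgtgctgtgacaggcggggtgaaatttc
JUN, with H3K4me2, chr7:35043383-35043583: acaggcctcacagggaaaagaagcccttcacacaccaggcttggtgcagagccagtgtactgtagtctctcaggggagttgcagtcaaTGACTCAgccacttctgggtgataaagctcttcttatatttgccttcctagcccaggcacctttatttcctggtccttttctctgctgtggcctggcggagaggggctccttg
JUN, without H3K4me2, chr7:73130120-73130320: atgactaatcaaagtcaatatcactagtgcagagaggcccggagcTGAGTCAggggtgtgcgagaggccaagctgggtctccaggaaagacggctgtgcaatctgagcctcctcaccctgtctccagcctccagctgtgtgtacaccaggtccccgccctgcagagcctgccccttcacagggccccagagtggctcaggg

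The unmarked FOXA2 region had an ATAC score of 3465 and a FOXA2 score of 617, and it also held JUN at a score of 77. It was intergenic, 220549 bp from NOL4, and its nearest H3K4me2 region was 22831 bp away. The marked JUN region lay in an intron of DPY19L1, a C-mannosyltransferase gene, and was covered by H3K4me2 over its whole length. The unmarked JUN region lay in an intron of STX1A, which encodes a syntaxin of synaptic vesicle release, 2525 bp from the nearest H3K4me2 region, and it was accessible and marked by H3K27ac in PC3 cells. These are single examples, and the comparison over all regions is given below.

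The distal regions of highest score in each accessible class, among those found in fewer than 17 of the 22 lists and whatever bound them, were of another kind. They and the unmarked JUN and promoter regions of highest score by the same limit are shown because their capitals mark runs of 25 or more bases that are identical to mitochondrial DNA of the reference.
accessible with H3K4me2, chr17:22020648-22020848: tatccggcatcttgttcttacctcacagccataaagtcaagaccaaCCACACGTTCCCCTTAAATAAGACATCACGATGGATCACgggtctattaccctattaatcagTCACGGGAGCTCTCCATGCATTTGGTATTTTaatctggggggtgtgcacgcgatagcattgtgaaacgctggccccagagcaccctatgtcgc
accessible without H3K4me2, chr13:110076501-110076701: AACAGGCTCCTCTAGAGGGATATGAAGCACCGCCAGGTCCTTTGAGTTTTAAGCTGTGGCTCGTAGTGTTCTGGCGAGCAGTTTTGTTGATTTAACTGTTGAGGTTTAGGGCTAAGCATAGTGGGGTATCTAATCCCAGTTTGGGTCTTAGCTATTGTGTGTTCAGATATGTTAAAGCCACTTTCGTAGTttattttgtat
accessible without H3K4me2, highest with JUN, chr5:99384501-99384701: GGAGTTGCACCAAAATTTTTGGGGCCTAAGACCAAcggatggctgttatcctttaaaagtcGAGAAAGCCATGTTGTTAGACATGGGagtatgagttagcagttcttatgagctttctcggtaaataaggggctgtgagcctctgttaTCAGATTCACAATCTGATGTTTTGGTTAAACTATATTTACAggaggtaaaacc
accessible without H3K4me2, highest promoter, chr2:88124538-88124738: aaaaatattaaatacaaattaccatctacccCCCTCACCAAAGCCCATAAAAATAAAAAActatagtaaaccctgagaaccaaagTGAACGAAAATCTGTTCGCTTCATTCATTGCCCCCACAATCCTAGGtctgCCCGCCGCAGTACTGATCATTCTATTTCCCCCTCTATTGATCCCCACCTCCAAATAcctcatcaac

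In the window nearest to IRS2, which encodes an insulin receptor substrate, 190 bases lay in such runs. Its ATAC score was 31932. The marked region lies 1689 bp from MTRNR2L1, itself a nuclear copy of a mitochondrial rRNA gene, and had 70 bases in such runs. The unmarked region of highest score with JUN, 486477 bp from FAM174A, had 102 bases in such runs, and the promoter region, in an intron of RGPD2, had 131. In all, 21 accessible regions without H3K4me2 and 9 with it held a mitochondrial run of this length at their centre. They made up 13 and 9 of the 100 highest-scoring regions of these classes. All 9 of the marked ones were overlapped by FOXA2 and by JUN, and 8 of them were in at least 17 of the 22 lists. ATAC-seq libraries carry mitochondrial reads, and the part of such reads in these scores was not tested.

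Widths, scores and base composition separated the classes. Accessible regions with H3K4me2 had a median width of 767 bp and a median score of 510, against 338 bp and 128 without the mark. Promoter regions with H3K4me2 were the widest, with a median of 1128 bp, and distal regions with H3K4me2 had a median of 678 bp. H3K4me2 regions with ATAC had a median width of 709 bp and a median score of 127, against 328 bp and 49 for those without ATAC. The median GC share of the same central window was 67.7% in marked accessible promoters, 49.3% in marked distal and 45.3% in unmarked distal regions. Marked accessible promoters held a median of 18 CG dinucleotides in that window and unmarked distal regions held 1.

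The share of accessible regions with H3K4me2 rose with the ATAC score. It was 16.2% in the lowest score decile and 93.6% in the highest. In the same direction, 65.6% of H3K4me2 regions of the lowest H3K4me2 decile overlapped an accessible region, and 97.9% of the highest. The regions on which the lists differed were therefore mainly those of low score and small width. The 2 lists shared 34.1 Mb, which was 53.3% of all accessible bases and 64.3% of all H3K4me2 bases.

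**Figure D1:**
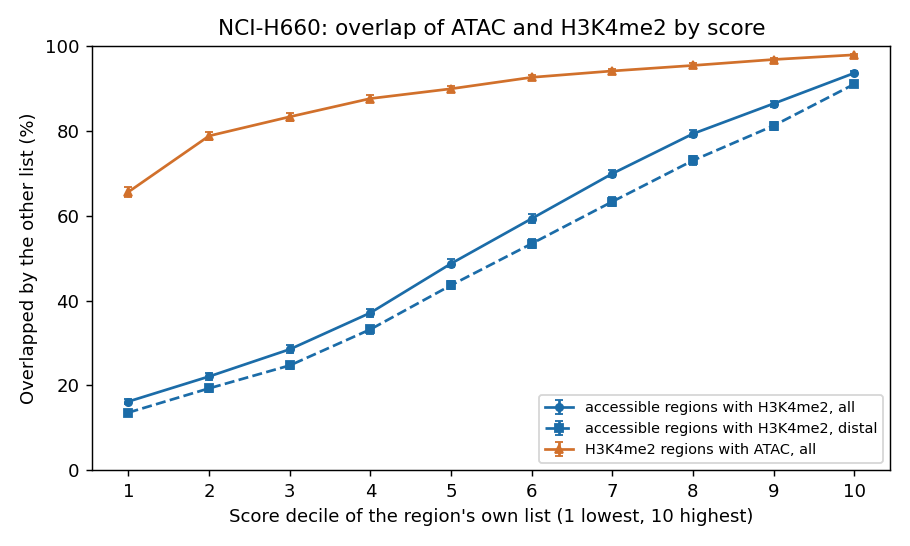
Share of regions overlapped by the other list (y axis, %) in each score decile of their own list (x axis), for all accessible regions (circles), distal accessible regions (squares) and H3K4me2 regions (triangles), with Wilson 95% intervals as error bars. The circles climb from 16.2% to 93.6% and the triangles from 65.6% to 97.9%.

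Nearly every accessible promoter carried the mark. Of 16522 accessible promoter regions 15159 overlapped H3K4me2 (91.8%, 91.3 to 92.2%), and of 83437 distal accessible regions 38936 did (46.7%, 46.3 to 47.0%), a difference of 45.1 points (44.5 to 45.6). The step was close to the start site. Accessible regions centred within 1 kb of a start were marked in 92.4%, those at 1 to 5 kb in 48.4%, at 5 to 20 kb in 50.5%, at 20 to 100 kb in 48.6% and beyond 100 kb in 41.8%. Promoters made up 28.0% of the marked accessible regions and 2.97% of the unmarked ones. Coding exons were touched by 20.7% of marked and 3.65% of unmarked accessible regions, while 38.0% and 49.7% were intergenic.

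Across promoters the share with H3K4me2 dipped at the accessible centre, and across distal elements it was highest at or near the centre. The central share itself was the higher at promoters. At the centres of accessible promoter regions 59.1% had an H3K4me2 region, at 500 bp to either side 68.2%, and the highest share was 69.6%, at 400 bp on one side. At distal accessible regions the share fell from 36.5% at the centre to 14.9% at 500 bp. Promoter JUN regions had the deepest dip, with 52.8% at the centre and 71.5% at 400 bp. Distal accessible regions with JUN had H3K4me2 at the centre in 64.0%, those with FOXA2 in 53.9% and those with neither factor in 30.8%. Of accessible promoter regions 34.7% overlapped 2 separate H3K4me2 regions, against 3.41% of distal ones. Accessible regions with at least 2 H3K4me2 regions numbered 8874, of which 67.2% were promoters. Their median width was 1228 bp, against 702 bp for those with 1 H3K4me2 region.

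**Figure D2:**
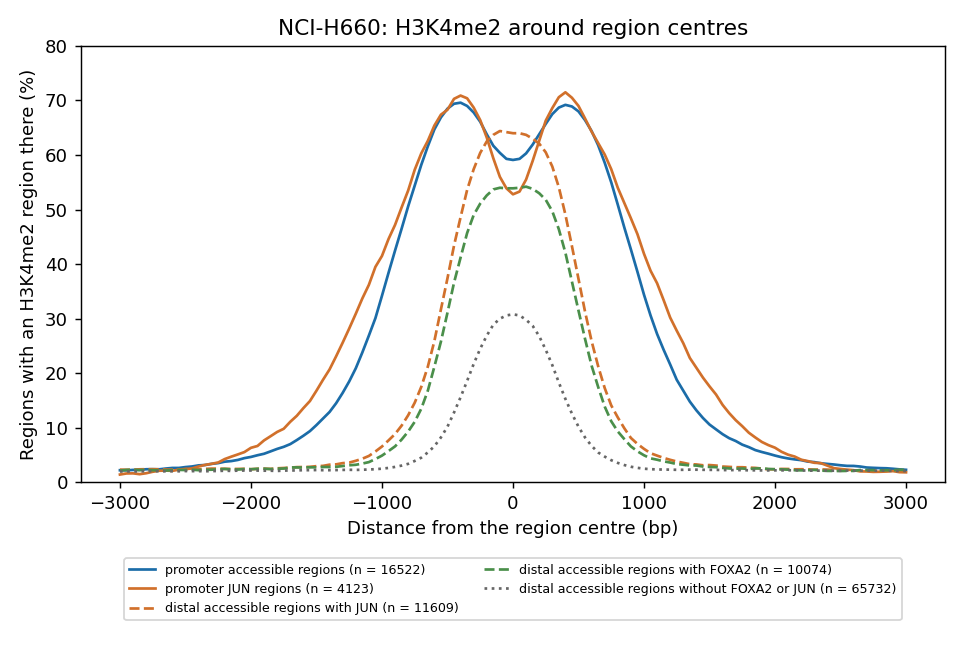
Share of regions (y axis, %) with an H3K4me2 region at each distance (x axis, bp) from the centre of accessible or JUN regions. Promoter sets (solid) dip at the centre, to 59.1% for accessible and 52.8% for JUN regions, while distal sets with JUN or FOXA2 (dashed) have central shares of 64.0% and 53.9%, and those with neither factor (dotted) of 30.8%.

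FOXA2 and JUN were found more often where the mark was. In distal accessible regions with H3K4me2, FOXA2 overlapped 7497 of 38936 (19.3%, 18.9 to 19.6%), and in those without 2577 of 44501 (5.79%, 5.58 to 6.01%). JUN overlapped 24.6% (24.1 to 25%) and 4.60% (4.41 to 4.80%). Both factors together were found in 9.18% and 0.910%. Since marked regions were wider and of higher score, the shares were also standardised over deciles of the ATAC score. The FOXA2 difference of 13.5 points then became 2.16 (13.7% and 11.5%), and the JUN difference of 19.9 points became 7.73 (17% and 9.26%). From ATAC decile 1 (6.05% and 1.09%) to decile 8 (20.6% and 19.3%) the marked share for FOXA2 was the higher. It was the lower in decile 9 (29.3% and 31%). In the highest ATAC decile FOXA2 held 45.3% of marked regions (44.1 to 46.6%) and 47.0% of unmarked regions (43.1 to 51.0%), so there the intervals overlapped. For JUN the shares in that decile were 63.1% (61.9 to 64.3%) and 44.7% (40.8 to 48.7%), and the marked share was the higher in all 10 deciles. Standardised over the width of the accessible region, the differences were 6.46 points for FOXA2 and 11.7 for JUN.

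**Figure D3:**
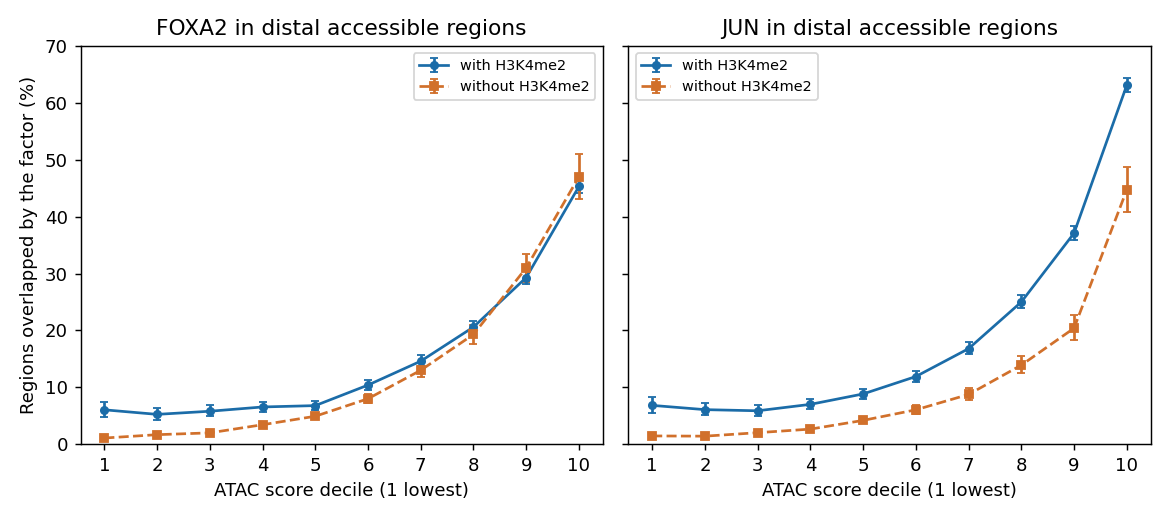
Share of distal accessible regions (y axis, %) overlapped by FOXA2 under vehicle (left) or JUN under siNC (right) in each ATAC score decile (x axis), with H3K4me2 (circles) or without (squares), with Wilson 95% intervals as error bars. The FOXA2 curves meet in the upper deciles (45.3% and 47.0% in the highest), and the JUN curves stay apart (63.1% and 44.7%).

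Read from the factors' side, the same counts gave an order. Of distal accessible regions with both FOXA2 and JUN 89.8% were marked (88.8 to 90.7%), of those with JUN alone 78.5%, with FOXA2 alone 64.4% and with neither 38.7%. Standardised over ATAC score deciles these shares were 85.4%, 57.9%, 48.9% and 45.0%. FOXA2 alone was thus close to regions with neither factor, and both factors together stood above either alone. Promoters differed from this. Marked accessible promoters held FOXA2 in 3.94% and JUN in 26.4%, and unmarked ones in 3.15% and 6.82%. With distance from the start site FOXA2 occupancy of accessible regions rose from 3.63% within 1 kb to 15.2% beyond 100 kb, while JUN occupancy was 25.1% within 1 kb, 11.9% at 1 to 5 kb and then rose to 14.7% beyond 100 kb.

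Motifs were counted from 100 bases before to 100 bases after the centre, on both strands, and in windows of the same length 2 kb to either side. A match is a description of the letters only. The forkhead motif was present in 36.7% of marked distal accessible regions (flanks 29.2%) and in 43.1% of unmarked ones (flanks 32.4%). This difference of -6.42 points went with base composition. Standardised over deciles of the GC share it was 0.518 points (40% and 39.5%). FOXA2 held 29.2% of marked regions with a forkhead motif (28.4 to 29.9%) and 9.62% of unmarked regions with one (9.21 to 10.0%). These 2 shares were not standardised over ATAC score. In each class the motif was less frequent in regions without FOXA2 (41.4% unmarked and 32.2% marked) than in FOXA2-bound ones. Among FOXA2-bound accessible regions the motif was present at the accessible centre in 71.6% without the mark (69.8 to 73.3%) and 55.5% with it (54.4 to 56.7%). Marked regions were wider. At the centres of the distal FOXA2 regions in accessible chromatin the shares were 82.8% of 3526 without the mark and 77.5% of 6694 with it. Those FOXA2 regions were split by their own overlap with H3K4me2, so the 2 pairs differ in the split as well as in the centre.

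The AP-1 pattern was similar. The motif was present in 5.32% of marked and 6.66% of unmarked distal accessible regions (flanks 3.22% and 3.26%). JUN held 46.0% of marked regions with the motif and 13.9% of unmarked regions with it, also not standardised over ATAC score. Among JUN-bound accessible regions 9.97% of marked and 20.1% of unmarked ones held the motif at the accessible centre. At the centres of the distal JUN regions in accessible chromatin, split by their own overlap with H3K4me2, it was present in 16.3% of 9192 and 23.8% of 2562. The cyclic AMP response element (TGACGTCA), which JUN dimers with ATF partners bind, was rare, with 130 distal accessible regions in all. JUN held 55 of the 78 marked and 13 of the 52 unmarked ones.

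CTCF is the zinc finger factor of insulators and loop anchors. Its motif, searched by its 12 core letters, was present in 0.925% of marked and 1.66% of unmarked distal accessible regions, against 0.0925% and 0.0843% of their flanks. Of the 1100 distal accessible regions with the motif 32.7% were marked (30 to 35.6%), against 46.7% of all. The difference between the classes was -0.738 points, and it was -1.25 when standardised over GC deciles and -0.345 over ATAC score deciles. FOXA2 held 4.17% of the marked and 0.946% of the unmarked ones. Motifs of promoter factors went the other way. SP/KLF (GGGGCGGGG) was present in 13.5% of marked promoters and in 1.66% and 0.371% of marked and unmarked distal regions, and 79.7% of distal accessible regions with it were marked (76.7 to 82.3%). For ETS (CCGGAAG) these values were 7.93%, 1.46%, 0.638% and 66.7%. Flanks of marked promoters, marked distal and unmarked distal regions held SP/KLF in 0.92%, 0.411% and 0.374%, and ETS in 0.861%, 0.652% and 0.53%. These 2 motifs were not standardised over GC, and marked distal regions were richer in GC (medians of 49.3% and 45.3%). The E-box CAGCTG, which proneural factors bind, was present in 16.9% of marked and 15.4% of unmarked distal accessible regions (flanks 8.20% and 7.67%), and 49.1% of distal regions with it were marked. Another E-box, CAGATG, was less frequent in marked (16%) than in unmarked ones (18.3%), with flanks of 13.3% in both. Of distal accessible regions with CAGATG 43.3% were marked.

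By the same limit on lists, the distal region of highest score with a CTCF motif in each class is shown with the motif in capitals.
with H3K4me2, chr1:177225324-177225524: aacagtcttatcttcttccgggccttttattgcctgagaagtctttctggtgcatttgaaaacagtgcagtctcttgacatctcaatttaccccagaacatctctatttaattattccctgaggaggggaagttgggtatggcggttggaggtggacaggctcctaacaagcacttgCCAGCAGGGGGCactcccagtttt
without H3K4me2, chr5:38441859-38442059: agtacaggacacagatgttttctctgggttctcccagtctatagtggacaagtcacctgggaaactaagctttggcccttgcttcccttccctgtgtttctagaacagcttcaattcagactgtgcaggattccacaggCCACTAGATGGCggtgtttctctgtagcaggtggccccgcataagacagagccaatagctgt

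The marked one touched a coding exon of BRINP2, had an ATAC score of 2100, overlapped 2 H3K4me2 regions and was bound by FOXA2 and by JUN. The unmarked one lay in an intron of EGFLAM, which encodes pikachurin, an extracellular matrix protein, had a score of 1471 and was bound by neither. Its nearest H3K4me2 region was 7341 bp away.

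The distal H3K4me2 region without ATAC of highest score in fewer than 17 lists is shown for its 29 CG dinucleotides in a central window of the same length.
H3K4me2 without ATAC, chr2:90449636-90449836: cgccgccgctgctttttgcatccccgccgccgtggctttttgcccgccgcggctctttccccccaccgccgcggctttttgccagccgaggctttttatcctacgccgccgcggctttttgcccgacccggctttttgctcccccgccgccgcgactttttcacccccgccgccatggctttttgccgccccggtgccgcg

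This region was 2450 bp wide with an H3K4me2 score of 1975. It was intergenic, 88661 bp from the start of RP11-685N3.1, and the nearest accessible region was 30689 bp away.

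Most accessible regions without H3K4me2 were far from any. Their median distance to the nearest H3K4me2 region was 12740 bp, 4.38% lay within 500 bp and 86.8% lay beyond 2 kb. H3K4me2 without ATAC was closer to accessible chromatin. Its median distance was 1283 bp, 36.4% lay within 500 bp and 45.1% beyond 2 kb. Of its 1866 promoter regions 65.4% lay within 500 bp of an accessible region, and of its 6436 distal regions 28.0%. FOXA2 overlapped 3.54% of H3K4me2 regions without ATAC and JUN 4.00%, and the forkhead motif was present in 22.2% of the distal ones, below their flanks (29.7%). In PC3 cells 57.4% of the promoter regions of this class overlapped H3K27ac (55.1 to 59.6%) while 22.3% overlapped accessible chromatin.

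The classes differed in how far they were shared with PC3, a prostate cancer line of another lineage. Accessible promoters with H3K4me2 were also accessible in PC3 in 86.8%, marked distal regions in 39.9% and unmarked distal regions in 26.7%. H3K27ac of PC3 overlapped 80.7%, 24.7% and 10.2% of them. The PC3 list holds 210960 accessible regions, more than that of NCI-H660, and it is narrower, so these shares compare classes and not cell lines. They were not standardised over width or score, and marked distal regions were the wider (medians of 678 and 337 bp).

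The promoters of named gene groups were classed next, taking for each gene the windows of 1 kb around all its protein-coding starts. Of 19821 protein-coding genes 14294 had an accessible promoter with H3K4me2 (72.1%), 500 an accessible promoter without it (2.52%), 287 H3K4me2 without ATAC (1.45%) and 4740 neither (23.9%). Among regions in fewer than 17 lists, the marked promoter region of highest score was the shared start of NUDCD1 and ENY2, a transcription and export factor gene, with an ATAC score of 7654 over 2 H3K4me2 regions. JUN lay at the promoters of 31.0% of the first state (30.2 to 31.8%) and 10.2% of the second (7.84 to 13.2%), FOXA2 at 4.41% and 2.80%.

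All 20 neuroendocrine secretory and surface genes were accessible with H3K4me2, against 72.1% of all genes. CHGA, which encodes a granin of dense-core granules, had an H3K4me2 score of 395, SYP, a synaptic vesicle protein, 297, and DLL3, an inhibitory Notch ligand, 316. JUN lay at 10 of the 20 promoters and FOXA2 at 0, against 22.7% and 3.25% of all genes. Of 20 neuroendocrine transcription factors 18 were in the same state. NEUROD1, a proneural basic helix-loop-helix factor, had a score of 153 and INSM1, a zinc finger factor of neuroendocrine cells, of 95. The median of the list was 271 where the mark was present, against 291 over all genes, and members such as RUNX1T1 (834), MYT1 (771) and SOX2 (489) were above it. NKX2-1 had H3K4me2 in its promoter windows at a score of 119, but its accessible region did not overlap it, and NHLH1 had neither. Around these factors distal marked regions were frequent, with a mean of 8.0 per gene against 1.97 over all genes. SOX2 had 28, POU3F2 and PROX1 21 each, and RUNX1T1 21.

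Of 20 luminal genes 14 were accessible with H3K4me2 (70%), against 72.1% of all genes. Neither was found at 5, among them KLK3, which encodes prostate-specific antigen, and KLK2. KRT8, a luminal keratin gene, had an ATAC score of 3262 and an H3K4me2 score of 690. FOXA1 was accessible at 1154 with no H3K4me2 within its promoter windows. In the basal and mesenchymal list 17 of 20 were accessible with H3K4me2, and TP63, whose product is the basal lineage factor p63, combined an ATAC score of 2093 with an H3K4me2 score of 70.

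Genes of the mark's machinery were mostly in the state that 72.1% of all protein-coding genes share, as were the mitosis and housekeeping genes below. All 16 LSD1 and CoREST genes were accessible with H3K4me2, KDM1A with a score of 150, RCOR1 with 443 and the neural corepressor gene RCOR2 with 614. Of 16 genes of H3K4 methylation writers and erasers 15 were, and at SETD1B, a methyltransferase gene, an H3K4me2 region of score 188 lay beside the accessible region without overlap. Of 14 AP-1 genes 13 were, with JUN at 304, FOS at 579 and FOSL1 at 1010, and BATF was accessible alone. All 14 mitosis genes and all 14 housekeeping genes were accessible with H3K4me2. Of 20 genes of other tissues 18 had neither, and the exceptions were GFAP and HBA1, the latter uncertain because HBA2 is a near-identical copy. Of 39 HOX genes 24 were accessible with H3K4me2 (61.5%) and 12 had neither, while of 390 olfactory receptor genes 385 had neither. Neighbouring HOX genes share windows, so they are not separate observations.

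**Figure D4:**
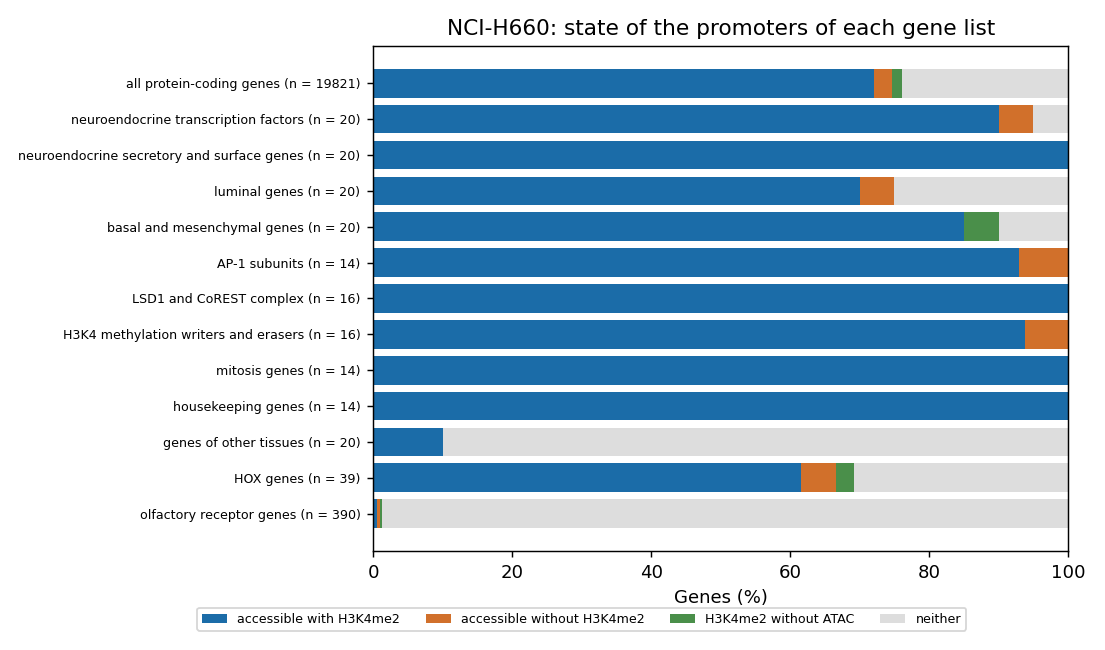
Share of genes (x axis, %) in each promoter state for all protein-coding genes and 12 gene lists (y axis, number of genes in brackets). All protein-coding genes stand at 72.1% accessible with H3K4me2, the secretory and surface, LSD1 and CoREST, mitosis and housekeeping lists stand at 100%, genes of other tissues at 10.0%.

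Distal regions were counted by their nearest protein-coding gene. Marked distal accessible regions were most numerous at AUTS2, a neurodevelopmental gene, and TMEM121 (59 each), then ZMIZ1, a transcriptional coregulator gene (58), CAMTA1, which encodes a calmodulin-binding transcription activator (51), and CWH43 (51), against a median of 2 over 10594 genes. Unmarked ones at these genes numbered 38, 46, 22, 25 and 18, in the same order, so the counts are not shares. The marked regions of TMEM121 spanned 1.3 Mb, at a median of 485.2 kb from its start. At CWH43 the regions lay within 0.59 Mb, 28 of 51 were overlapped in at least 17 of the 22 lists, and 35 held FOXA2 and 40 JUN. Without such shared places, which made up 0.695% of marked and 0.0109% of unmarked accessible regions, the FOXA2 difference was 12.7 points and the JUN difference 19.3. Unmarked distal accessible regions were most numerous at CSMD3 (78), CELF4, an RNA-binding protein gene of neurons (77), GPC5, a glypican gene (71), FLRT2, an adhesion gene (68), and PIK3C3, a lipid kinase gene (65). At these 5 genes the median distance of the regions to the start was 516.6 to 1003.4 kb. Marked ones there numbered 31, 47, 33, 22 and 16, in the same order. Among 872 genes with at least 20 distal accessible regions the marked share had a median of 44.6%. It was 78.3% of 23 at VEGFA, the vascular growth factor gene (58.1 to 90.3%), picked after its value was seen from the upper part of that range.

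H3K4me2 without ATAC was most numerous near RP11-685N3.1 (28), TPTE (17), TRPS1 (17), CSMD3 (16) and SHCBP1 (12). The regions near RP11-685N3.1 spanned 2.38 Mb of chromosome 2 and were overlapped in a median of 8 lists, those near SHCBP1 in 15. In all, 23 of the 8302 regions were in places held by at least 17 lists. TRPS1, a GATA-type repressor gene, and CSMD3 both lie on chromosome 8, where 20.6% of distal H3K4me2 regions had no ATAC (19.2 to 22%), the highest share of any autosome but 19 (22%, 19.7 to 24.5%), against 10.5 to 17.6% on the other autosomes. Their median score on chromosome 8 was 33, the lowest of any chromosome. By the same limit, the promoter region of highest score in the class was that of PLPPR3, a phospholipid phosphatase-related gene of neurons, on chromosome 19, with an H3K4me2 score of 1120 and no accessible region within 19763 bp.

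To ask whether the mark goes with binding that outlasts a perturbation, FOXA2 and JUN regions were classed by what they themselves overlapped. A factor region beside H3K4me2 but inside a marked accessible region thus counts as without the mark. Of the FOXA2 regions under vehicle 60.1% lay in accessible chromatin with H3K4me2, 30.8% in accessible chromatin without it, 2.56% on H3K4me2 without ATAC and 6.53% on neither. Over all FOXA2 regions 68.4% were also listed under ORY-1001. By class, 72.8% (71.7 to 73.8%), 65.5% (63.9 to 67.0%), 79.3% (74.4 to 83.5%) and 37.9% (34.5 to 41.4%) were kept. The third of these classes has 304 regions, of which 7.89% lay in places held by at least 17 lists, and 77.5% of the others were kept. Regions with H3K4me2 were kept 12.4 points more often than those without, and standardised over deciles of the FOXA2 score the difference was 2.58 points, with 68.9% and 68.0% for the accessible classes. Regions without H3K4me2 here include those on neither. Of distal FOXA2 regions in accessible chromatin, 73.9% with the mark and 65.6% without it were kept. For promoter FOXA2 regions there the shares were 55.3% of 450 (50.7 to 59.9%) and 61.8% of 136 (53.4 to 69.5%), with overlapping intervals. Only 43 unmarked accessible promoters held FOXA2, so the 136 are not a set of unmarked promoters. Of the 3332 FOXA2 regions listed under ORY-1001 alone, 42.3% lay in accessible chromatin with H3K4me2 and 26.5% in neither. H3K4me2 under ORY-1001 is not analysed here, so no change of the mark can be read from these lists.

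Of the JUN regions under siNC 68.6% lay in accessible chromatin with H3K4me2, 17.4% in accessible chromatin without it, 1.84% on H3K4me2 without ATAC and 12.2% on neither. Over all of them 48% were also listed under siFOXA2, and by class 55.2% (54.3 to 56.0%), 34.7% (33.1 to 36.4%), 31.3% (26.6 to 36.4%) and 29.1% (27.3 to 31.1%). The difference between regions with and without H3K4me2 was 22.2 points, and 18.5 when standardised over deciles of the JUN score. In accessible chromatin it was present for distal JUN regions (48.9% and 27.4%) and smaller for promoter JUN regions (72.0% and 63.8%). The promoter JUN regions without the mark numbered 641, while 93 unmarked accessible promoters held JUN. The siFOXA2 list was longer. Of the 50633 JUN regions listed under siFOXA2 alone 76.6% overlapped neither accessible chromatin nor H3K4me2 of vehicle cells (76.2 to 77.0%), and 8288 (16.4%) lay in accessible chromatin with H3K4me2. JUN overlapped 43.0% of marked accessible promoters under siFOXA2 (42.2 to 43.8%), against 26.4% under siNC, and 23.5% against 24.6% of marked distal accessible regions. The median score of the siFOXA2 list was 39, against 78 for the siNC list. Accessibility after siFOXA2 is not analysed here.

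**Figure D5:**
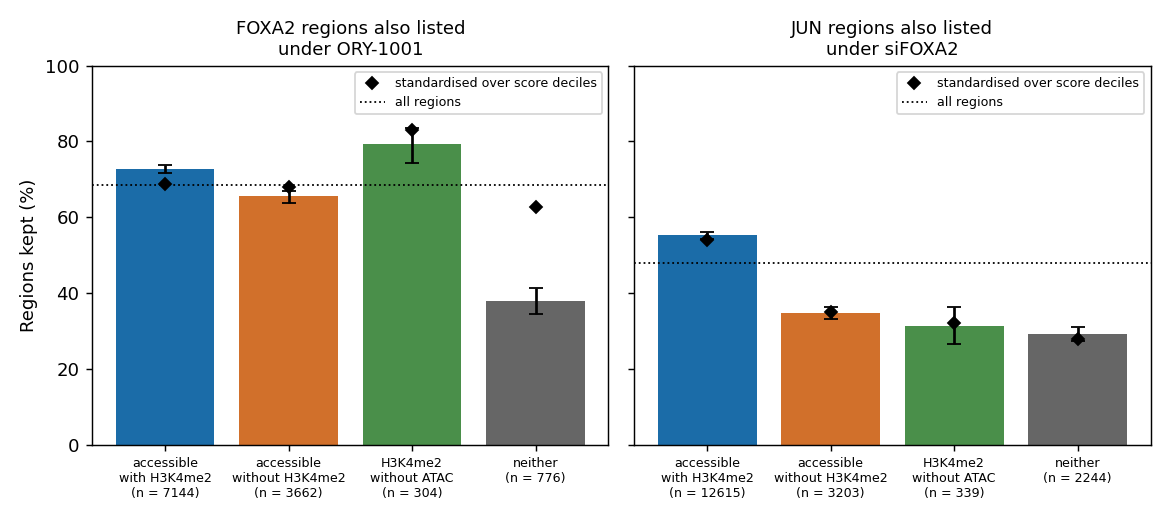
Share of FOXA2 regions of vehicle cells also listed under ORY-1001 (left) and of JUN regions of siNC cells also listed under siFOXA2 (right) by class (x axis), with Wilson 95% intervals as error bars, shares standardised over score deciles as diamonds and all regions as dotted lines (68.4% and 48%). For FOXA2 the diamonds of the accessible classes lie at 68.9% and 68.0%, and for JUN at 53.9% and 34.9%. Classes follow the factor region's own overlap.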

How the data were processed

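The 22 deposited lists are BED files on hg19. In 20 of them the fifth column is a whole-number score that the authors' peak caller wrote, read here as 10 times -log10 q from its range, and 2 deposited lists, of LNCaP cells, give only positions, which are other values. The submitters' processing notes name FastQC 0.11.9, BWA 0.7.17-r1188, SAMtools 1.9 and MACS2 2.1.4. Control libraries, peak settings, any shift of ATAC reads and pooling are not given in the sources used here. The labels name a Millipore H3K4me2 antibody and the study's methods an Abcam one, and the ATAC label repeats the ChIP extraction text where the methods describe a transposase assay.

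Overlap of at least 1 bp, distances, promoters (GENCODE 44 on GRCh37, protein-coding starts within 1 kb), motifs and Wilson 95% intervals were computed with Python 3.11.15, numpy 2.4.6, pandas 2.3.3, scipy 1.17.1 and pysam 0.24.0, after the overlap and motif code was tested on simulated data. Standardised shares weight each of 10 deciles by all regions compared. With 1 list per condition no test was made. The classes, gene lists and motifs were chosen with earlier results of these data known. Named were up to 5 genes per list, the region of highest score per class found in fewer than 17 of the 22 lists, the highest with FOXA2, JUN or a CTCF motif, and the 5 genes nearest to most distal regions. FOXA2 motif and JUN motif examples and VEGFA were added after their values were seen. Some named items are not reported here. More than 5 members are named where a list's exceptions are given. Alternatives changed the overlap, score minimum, list length, promoter distance, motif window and standardisation.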

Additional observations from a re-analysis of the deposited data

How the results depend on the processing

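Of 40 alternatives over 9 results, 29 were planned and 11 were chosen after seeing the data. In 10 the value stayed within the counting interval of the main result, in 29 it moved outside that interval and in 1 the direction of a difference turned. The plain shares moved both up and down. The share of accessible regions with H3K4me2 (54.1%) and of H3K4me2 regions with ATAC (88.2%) became 42.7% and 69.1% when 50% of a region had to be covered, 56.1% and 92.5% within 500 bp, 40.1% and 91.0% at scores of at least 100, and 63.4% and 75.8% for the 50000 highest-scoring regions. With only 100 bp to either side of the centre of accessible regions (added) the first was 46.7%. The promoter minus distal difference (45.1 points) was 38.7 with promoters of 2.5 kb and 58.9 at scores of at least 100. The FOXA2 and JUN occupancy differences (13.5 and 19.9 points) were 10.7 and 11.6 at scores of at least 100, 2.16 and 7.73 over ATAC score deciles, 12.7 and 19.3 without places in at least 17 lists and, as added alternatives, 6.46 and 11.7 over width deciles and 8.21 and 15.3 in that central window. The forkhead difference (-6.42 points) was -4.81 with 250 bp on either side, -9.02 over ATAC score deciles (added) and 0.518 over GC deciles (added), where its direction turned. The CTCF difference (-0.738) was -0.345 over score deciles and -1.25 over GC deciles, both added. The kept differences of FOXA2 and JUN regions (12.4 and 22.2 points) were 15.2 and 26.0 within 500 bp and 2.58 and 18.5 over score deciles. The causes of these changes were not tested, and standardised shares do not show them. No paired analysis was possible because each condition is 1 list and no result comes from a test, and no replicate could be left out. Read depth is unknown, so a region missing from a list is one that was not called.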
